A study of Mus musculus with 2 samples.

Results

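Heparan sulfate proteoglycans are core proteins that carry long sulfated sugar chains, and the genes described here encode those core proteins and the enzymes that build, sulfate and trim the chains. The genes were chosen by symbol, and no measured value entered that rule, but earlier results of these data were known. They are every syndecan (Sdc) and glypican (Gpc) with a single digit, perlecan (Hspg2), the chain polymerases (Ext1, Ext2 and the Extl genes), the sulfotransferases and epimerase (Ndst, Glce, Hs2st1, Hs6st, Hs3st), the endosulfatases Sulf1 and Sulf2, and the heparanase genes Hpse and Hpse2. This gave 36 genes of the 31058 features counted. By role, 11 encode core proteins, 5 act in polymerisation, 16 modify the chain and 4 edit or cleave it.

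Chain synthesis starts on a short linker on the core protein. Ext1 and Ext2 then add alternating sugars. Ndst enzymes replace acetyl with sulfate groups, Glce flips the uronic acid, and Hs2st1, Hs6st and Hs3st enzymes add sulfates at named positions of the sugars. The endosulfatases remove 6-O-sulfates outside the cell, and heparanase cuts chains. In the glomerulus these chains are part of the charged surface coats and of the basement membrane shared by podocytes and endothelium, and they bind growth factors such as VEGF and FGF.

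The data are 3' single-cell RNA libraries (10x Genomics) of total cells from kidney glomeruli of 2 mice, 1 library titled female and 1 titled male, each a group of 1. Both mice were C57Bl/6, carried Pax2.rtTA, TetO.Cre and the R26.Confetti reporter, received doxycycline at 19 days of age and were killed at 30 days. They are labelled healthy, and no untreated or reporter-free animals were analysed here. In this line Pax2 sequences drive the doxycycline-dependent activator, which acts through TetO.Cre on the multicolour Confetti reporter. After filters on mitochondrial share and genes per cell, 4909 cells with 61597843 UMIs (unique molecular identifiers, each a captured transcript) were left in the library labelled female and 4442 cells with 48606563 UMIs in the library labelled male.

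Before the results, 3 facts on the libraries bear on how the values can be read. The sex titles go against the sex-linked genes: Xist, which is expressed from the inactive X chromosome, was at 1593 CPM (counts-per-million of all UMIs) in the one titled male and 0.682 CPM in the other, whereas the Y-linked Ddx3y was at 0 and 132 CPM. The libraries are therefore named by their titles as "the library labelled female" and "the library labelled male". Of the kept cells, 7 barcodes occur in both libraries. RNA of podocytes, the most abundant cells, was found in every other class, and its level is given beside the results it touches.

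Clusters were named from marker genes with the 36 genes left out of clustering. There were 4128 and 3717 podocyte-like cells in the libraries labelled female and male in 7 clusters. Mesangial-like cells numbered 214 and 161, glomerular endothelial-like cells 112 and 100, parietal epithelial-like cells 81 and 52, arterial endothelial-like cells 61 and 55, and thick ascending limb-like cells 54 and 83. The last class also held Slc12a3, a marker of the distal convoluted tubule, among its leading genes. Smooth muscle or renin-like cells (49 and 72) and proximal tubule-like cells (10 and 22) fell under the minimum of 50 cells in a library and are given as values only. A cluster of 114 and 92 cells led by Cst12, Igfbp6, Lsp1 and Dkk3 stayed unnamed, as did one of 47 and 23 cells led by Igfbp4, Adamts5 and Cd248 and 2 small ones with Cenpf, Top2a and Mki67 among their leading genes. In parietal epithelial-like cells the 8 parietal markers summed to 4021 and 3876 CPM, with none at 0, and the 7 smooth muscle or renin markers to 3007 and 3948 CPM, with 0 and 3 of them at 0. In podocyte-like cells the latter summed to 76.0 and 44.6 CPM. The part of such RNA in the parietal differences was not tested.

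Levels below are counts of a gene scaled to the summed UMIs of the class (counts-per-million, CPM), always with the library labelled female first and the library labelled male second. A UMI tags a transcript's 3' end, so no division by gene length was made. Of the 36 genes, 24 reached 20 CPM in both libraries of at least 1 of the 6 tested classes. The numbers at that level were 16 genes in parietal epithelial-like, 15 in thick ascending limb-like, 13 in mesangial-like, 12 in podocyte-like, 11 in arterial endothelial-like and 10 in glomerular endothelial-like cells. In thick ascending limb-like cells Hs3st6, Sulf1, Gpc1 and Hs3st3b1 reached it only with cells rich in podocyte RNA, as given below. The place of that class in the order depends on those cells. The share of all genes at that level in each class is not given here either, so the order is a description only. Among the 24, the highest mean level lay in podocyte-like cells for 7 (Sdc4, Sdc2, Gpc1, Ext2, Hs3st6, Hs3st3a1, Sulf1) and in parietal epithelial-like cells for 7 (Gpc4, Ext1, Extl2, Extl3, Ndst1, Hs6st1, Hs6st2). It lay in mesangial-like cells for 6 (Gpc3, Gpc6, Sdc1, Sdc3, Hs2st1, Hs3st3b1), in glomerular endothelial-like cells for Hspg2 and Glce, and in arterial endothelial-like cells for Sulf2 and Hs3st1. The share of all genes highest in each class is not given here, so these numbers are descriptions only. For 20 of the 24, both libraries of the highest class lay above both libraries of the second class. Over all genes under the same level rule that share was 64.3%. The 4 exceptions were Hs6st1, Extl2, Extl3 and Gpc6.

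**Figure D1:**
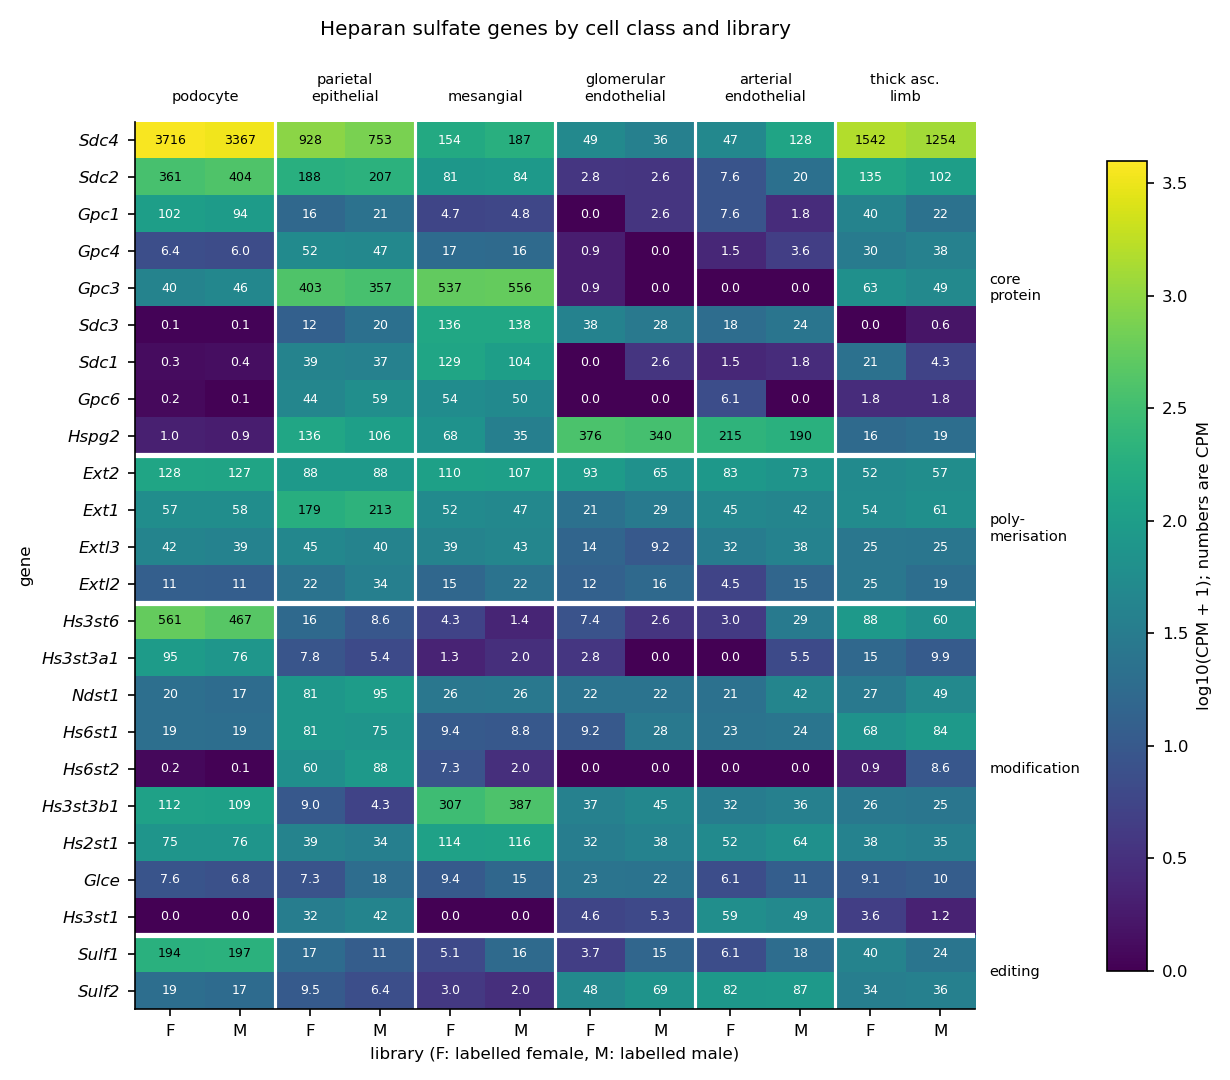
Levels of the 24 genes that reached 20 CPM, by role (rows), in 6 cell classes and 2 libraries (columns). Colour is log10(CPM + 1) and the numbers are CPM. Sdc4 stands out in podocyte-like cells at 3716 and 3367 CPM, Hspg2 is near 1 CPM there and above 300 CPM in glomerular endothelial-like cells.

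Podocyte-like sums were compared with those of each other class by edgeR's quasi-likelihood test, with library and class as terms, over 11562 genes, of which 26 belong to the set. A call is a Benjamini-Hochberg adjusted p under 0.05 over all genes. With 2 mice and library as a term, the p-values measure how far class differences vary between the 2 libraries, pooled over classes. The difference common to all classes of a library is taken out, and 5 residual degrees of freedom remain. They are thus no measure of the full spread between mice. Against glomerular endothelial-like cells, 14 of the 26 were higher in podocyte-like cells and 5 lower, where 26.4% and 27.0% of all genes were called in those directions (53.4% in either). Against arterial endothelial-like cells, 11 were higher and 5 lower, where the shares over all genes were 23.3% and 23.4% (46.7% in either direction). Against mesangial-like cells, 10 were higher and 10 lower, beside 26.8% and 30.7% of all genes (57.5% in either direction). Against parietal epithelial-like cells, 11 were higher and 12 lower, beside 23.0% and 30.1% (53.1% in either direction). Against thick ascending limb-like cells, 10 were higher and 10 lower, beside 23.4% and 29.4% (52.9% in either direction). Median log2 differences over the 26 genes, podocyte-like minus the other class, were 1.42 against glomerular endothelial-like, 0.42 against arterial endothelial-like, 0.18 against mesangial-like, -0.22 against parietal epithelial-like and -0.22 against thick ascending limb-like cells. The medians over all genes tested were 0.08, 0.09, 0.00056, -0.021 and -0.036 in the same order.

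**Figure D2:**
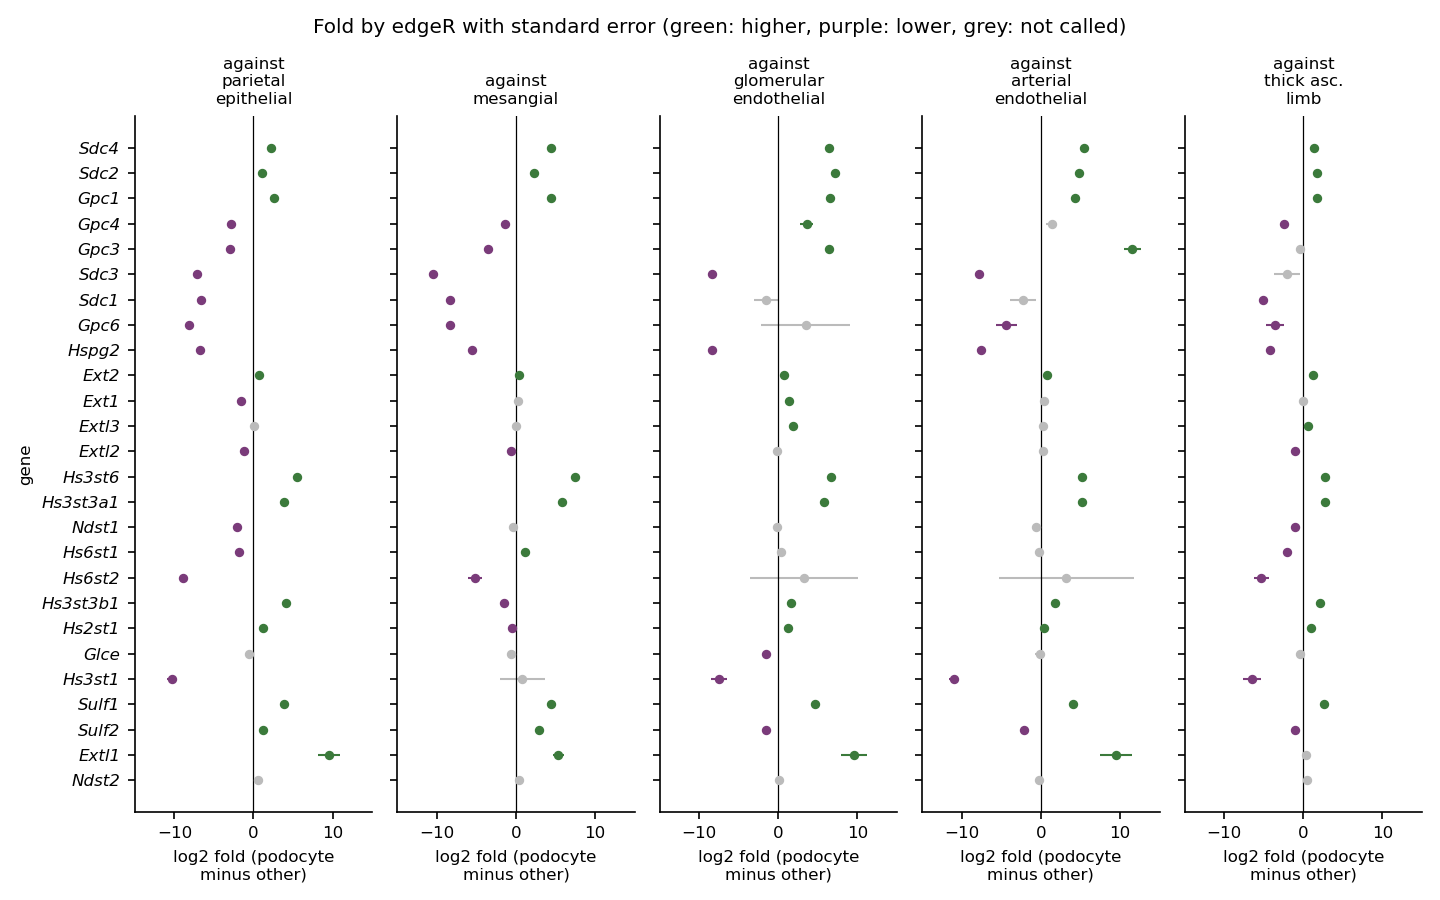
log2 fold of each tested gene, podocyte-like minus each of 5 other classes, by edgeR. Bars are a standard error derived as the absolute log2 fold over the square root of the test's F statistic. Green points are called higher in podocyte-like cells, purple lower, grey not called; wide bars mark genes with few or no UMIs in at least 1 of the 2 classes.

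Among the core proteins, syndecan-4 had the highest level in podocyte-like cells and glypican-3 in mesangial-like cells. Glypican-3 was also high in parietal epithelial-like cells, at a mean of 380 CPM beside 546 CPM in mesangial-like cells. Sdc4 (chr2:164424247-164443887, minus strand, GRCm38) encodes a transmembrane proteoglycan of cell-matrix contacts. It was at 3716 and 3367 CPM in podocyte-like, 1542 and 1254 CPM in thick ascending limb-like, 928 and 753 CPM in parietal epithelial-like and 154 and 187 CPM in mesangial-like cells. In glomerular endothelial-like cells it was at 48.9 and 35.6 CPM and in arterial endothelial-like cells at 47.0 and 128 CPM. Podocyte-like cells lay above every other class in both libraries, and the order of the first 4 classes was the same in each. The edgeR log2 differences ran from 1.31 ± 0.21 (SE) against thick ascending limb-like cells (adjusted p = 5.04e-05) to 6.45 ± 0.29 against glomerular endothelial-like cells (adjusted p = 4.41e-12). Nearly every podocyte-like cell held an Sdc4 UMI, 4127 of 4128 and 3717 of 3717.

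Part of the Sdc4 signal outside podocytes moved with podocyte RNA, whose part in the values with all cells was not tested. A set of 11 podocyte markers was at a median of 19.1% and 14.1% of their podocyte level in thick ascending limb-like cells, 4.34% and 2.86% in parietal epithelial-like cells, 1.64% and 1.21% in glomerular endothelial-like cells and 2.10% and 5.24% in arterial endothelial-like cells. Cells of other classes with 5 or more UMIs of Nphs1, which encodes nephrin of the slit diaphragm, called mixed cells here, were then left out, which was chosen after seeing the data. Of the thick ascending limb-like cells, 17 of 54 and 16 of 83 were mixed. Nphs1 is 1 of the 11 markers. Without mixed cells the markers' median was 0.430% and 0.525% in that class, and Sdc4 stayed at 973 and 1009 CPM, 26.2% and 30.0% of its podocyte level. In parietal epithelial-like cells Sdc4 stayed at 874 and 731 CPM. In both endothelial classes Sdc4 was then at 0.556% to 1.42% of its podocyte level, below the podocyte markers' median there (2.01% and 3.33% in arterial, 1.20% and 1.21% in glomerular endothelial-like cells) and above Nphs1 (0.414% and 0.544% in arterial, 0.494% and 0.902% in glomerular endothelial-like cells). Mixed cells were left out by their Nphs1 UMIs, so that step itself can lower Nphs1. The comparison with Nphs1 therefore cannot show whether Sdc4 exceeds the podocyte RNA left. How much of the Sdc4 in the endothelial classes came from podocyte RNA was not tested. The mesangial-like level, 4.10% and 5.59% of podocyte-like, was above the markers' median of 1.01% and 0.692%.

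Syndecan-2, another transmembrane core protein, was also highest in podocyte-like cells, with parietal epithelial-like cells second among the 6 tested classes. Sdc2 was at 361 and 404 CPM in podocyte-like, 188 and 207 CPM in parietal epithelial-like, 135 and 102 CPM in thick ascending limb-like and 80.6 and 83.5 CPM in mesangial-like cells. Without mixed cells the thick ascending limb-like values were 90.4 and 64.2 CPM and the mesangial-like values 85.1 and 88.9 CPM, so the order of these 2 classes turned in the library labelled male. Sdc2 was at 2.77 and 2.64 CPM in glomerular endothelial-like cells. All 5 contrasts were called higher in podocyte-like cells, from 1.11 ± 0.14 on the log2 scale against parietal epithelial-like cells (edgeR adjusted p = 5.06e-06) upward. The smooth muscle or renin-like cells, not tested, held more than parietal epithelial-like cells with all cells, at 230 and 227 CPM. Podocyte markers were there at a median of 21.8% and 11.7% of their podocyte level. Without mixed cells this class was at 206 and 207 CPM. Parietal epithelial-like cells were then at 52.5% and 50.9% of the podocyte-like level, so the 2 classes lay close in the library labelled male.

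Syndecan-1 and syndecan-3 showed the opposite pattern. Sdc3 was at 136 and 138 CPM in mesangial-like cells, 37.8 and 27.7 CPM in glomerular endothelial-like cells, 18.2 and 23.7 CPM in arterial endothelial-like cells and 11.8 and 20.3 CPM in parietal epithelial-like cells. In podocyte-like cells it was at 0.079 and 0.0752 CPM, from 7 UMIs in all. Sdc1, best known as the syndecan of epithelia and plasma cells, was at 129 and 104 CPM in mesangial-like and 39.2 and 37.5 CPM in parietal epithelial-like cells against 0.296 and 0.376 CPM in podocyte-like cells. Its highest value in a single library, 139.8 CPM, lay in a named class too small for the test. Podocyte-like cells were called lower than mesangial-like cells for both, by -10.45 ± 0.22 for Sdc3 (edgeR adjusted p = 5.38e-16) and -8.31 ± 0.27 for Sdc1 (adjusted p = 5.44e-14) on the log2 scale. The make-up of the syndecan UMIs differed between classes. Sdc4 made up 91.1% and 89.3% of them in podocyte-like cells and 30.8% and 36.5% in mesangial-like cells, where Sdc3 held 27.3% and 26.9% and Sdc1 25.8% and 20.3%.

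Glypicans are held to the membrane by a lipid anchor. Gpc3 (chrX:52272426-52613950, minus strand), a regulator of growth factor signals in development, was at 537 and 556 CPM in mesangial-like and 403 and 357 CPM in parietal epithelial-like cells. It was at 62.8 and 48.7 CPM in thick ascending limb-like and 40.0 and 45.8 CPM in podocyte-like cells. Podocyte-like cells were lower than mesangial-like cells by -3.58 ± 0.14 on the log2 scale (edgeR adjusted p = 2.97e-12) and lower than parietal epithelial-like cells by -3.00 ± 0.14 (adjusted p = 4.61e-11). Arterial endothelial-like cells held no Gpc3 UMI in either library and glomerular endothelial-like cells held 1. Against a limit of 3 UMIs over both arterial libraries, the podocyte-like level was at least 17.1-fold higher.

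Gpc1 was highest in podocyte-like cells. It was at 102 and 93.6 CPM in podocyte-like cells, 15.7 and 21.4 CPM in parietal epithelial-like cells and 4.72 and 4.75 CPM in mesangial-like cells. All 5 contrasts were called higher, the smallest being 1.70 ± 0.20 against thick ascending limb-like cells (edgeR adjusted p = 1.69e-06). There Gpc1 was at 40.1 and 21.6 CPM with all cells and 11.1 and 10.3 CPM without mixed cells, where the log2 difference was 3.11. Gpc4 was at 51.5 and 47.1 CPM in parietal epithelial-like, 30.1 and 37.6 CPM in thick ascending limb-like and 17.2 and 16.3 CPM in mesangial-like cells, and at 6.44 and 5.96 CPM in podocyte-like cells. Proximal tubule-like cells, not tested, held more, 92.1 and 85.4 CPM. Gpc6 was at 54.5 and 50.3 CPM in mesangial-like and 43.7 and 58.9 CPM in parietal epithelial-like cells, 2 classes whose values overlap. Podocyte-like cells held 0.217 and 0.0501 CPM of Gpc6, and the call against arterial endothelial-like cells rested on 4 UMIs of the library labelled female.

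Smooth muscle or renin-like cells had the highest Gpc6 of all named classes, 278 and 263 CPM, and 347 and 295 CPM without mixed cells. The glypican UMIs were thus mostly Gpc3 in mesangial-like (87.6% and 88.6%) and parietal epithelial-like cells (78.3% and 73.4%), Gpc1 in podocyte-like cells (68.7% and 64.3%) and Gpc6 in smooth muscle or renin-like cells (57.0% and 53.3%). In the 10 and 22 proximal tubule-like cells Gpc4 held 69.0% and 74.6% of glypican UMIs, from 29 and 47 UMIs. Glypican UMIs in the endothelial classes numbered 10 or fewer in each library.

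**Figure D3:**
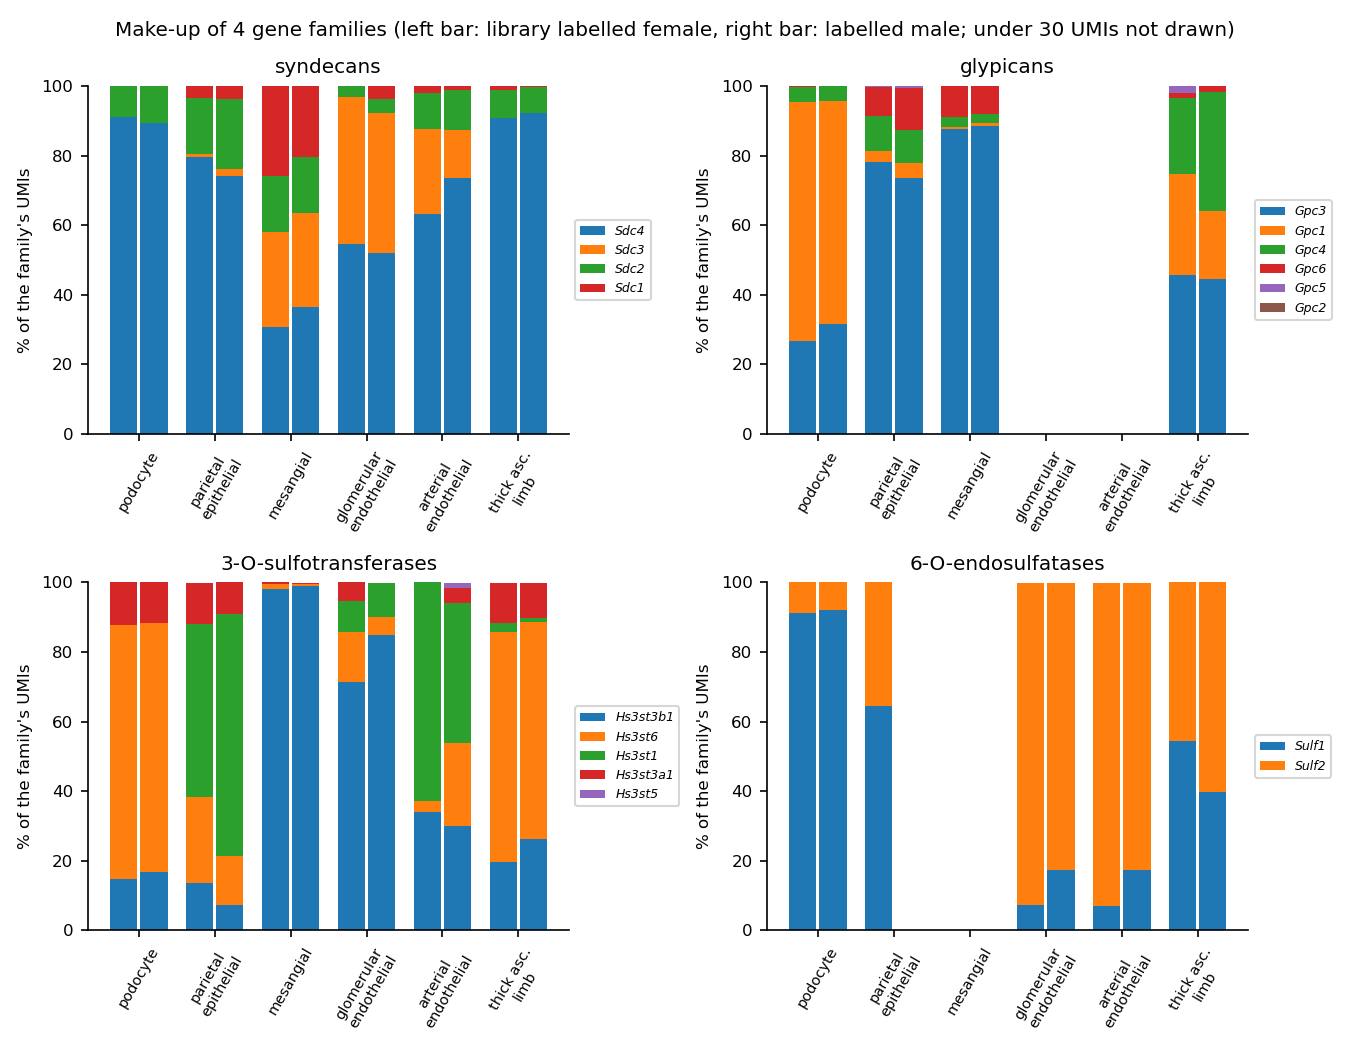
Share of each family's UMIs (percent) held by each gene, by cell class, for syndecans, glypicans, 3-O-sulfotransferases and 6-O-endosulfatases; the left bar of a pair is the library labelled female and sums under 30 UMIs are not drawn. Hs3st6 fills most of the 3-O-sulfotransferase bar in podocyte-like cells and Hs3st3b1 in mesangial-like cells.

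Perlecan, the large secreted proteoglycan of basement membranes, was highest in the endothelial classes. Hspg2 (chr4:137468769-137570630, plus strand) was at 376 and 340 CPM in glomerular endothelial-like, 215 and 190 CPM in arterial endothelial-like and 136 and 106 CPM in parietal epithelial-like cells. It was at 67.8 and 35.3 CPM in mesangial-like, 16.4 and 19.1 CPM in thick ascending limb-like and 1.05 and 0.927 CPM in podocyte-like cells. Podocyte-like cells lay below every other class in both libraries. The log2 difference was -8.40 ± 0.21 against glomerular endothelial-like (edgeR adjusted p = 2.92e-15) and -6.77 ± 0.21 against parietal epithelial-like cells (adjusted p = 1.09e-13). A few mesangial-like cells (5 and 5) held 2 or more UMIs of Kdr, an endothelial receptor. Without mixed cells, these included, mesangial Hspg2 was at 34.5 and 27.2 CPM. Of the podocyte-like cells, 51 of 4128 and 36 of 3717 held an Hspg2 UMI.

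Other proteins that can carry heparan sulfate were read from a list of 10 genes, of which 6 were tested. Tgfbr3, betaglycan, was called higher in podocyte-like cells in all 5 contrasts, at 139 and 148 CPM there and 18.2 and 23.7 CPM in arterial endothelial-like cells. Col18a1, the basement membrane collagen XVIII, was called higher than in 4 classes, at 476 and 466 CPM, and lower than in parietal epithelial-like cells, where it was at 1788 and 1688 CPM. These 2 were the only ones of the list called in all contrasts. Podocyte-like cells had 2 of the list higher and 2 lower than parietal epithelial-like, 2 and 3 than mesangial-like, 3 and 3 than glomerular endothelial-like, 2 and 2 than arterial endothelial-like and 4 and 2 than thick ascending limb-like cells. The shares of all genes ran from 23.0% to 26.8% higher and from 23.4% to 30.7% lower. Srgn, Nrp1 and Cd44 were each called in 4 contrasts. Srgn and Cd44 were lower in podocyte-like cells in all 4, and Nrp1 in 3 of them, with Srgn differing by -10.80 on the log2 scale against glomerular endothelial-like cells. These 3 were named after their values were seen. The remaining tested gene of the list went the other way, called higher in podocyte-like cells in some contrasts and lower in none.

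For Sdc4 and Hspg2, core proteins that were highest in podocyte-like and in glomerular endothelial-like cells, the 250 bases before each start site (RefSeq, GRCm38.p6) are shown with the letters GGGCGG, the GC box bound by SP and KLF factors, in capitals on either strand. The Sdc4 window is chr2:164443189-164443438 on the minus strand and the Hspg2 window chr4:137468553-137468802 on the plus strand. The RefSeq start of Sdc4 lies inside its GENCODE gene span (chromosome 2, 164424247 to 164443887), and so does its whole window.
Sdc4: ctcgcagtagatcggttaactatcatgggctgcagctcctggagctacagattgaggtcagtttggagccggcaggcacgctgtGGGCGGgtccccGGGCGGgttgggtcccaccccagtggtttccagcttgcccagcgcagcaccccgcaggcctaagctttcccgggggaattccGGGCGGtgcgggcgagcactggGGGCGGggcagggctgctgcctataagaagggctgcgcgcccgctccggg
Hspg2: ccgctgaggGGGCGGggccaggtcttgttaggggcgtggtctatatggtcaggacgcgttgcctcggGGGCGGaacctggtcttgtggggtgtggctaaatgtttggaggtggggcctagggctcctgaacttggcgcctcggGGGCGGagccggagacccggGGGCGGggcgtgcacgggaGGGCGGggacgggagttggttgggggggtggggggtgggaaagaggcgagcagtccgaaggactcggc

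The Sdc4 window holds 4 GC boxes and the Hspg2 window 5, and 32.7% of 32851 promoter windows of this length hold at least 1. Neither window matched the other 5 motifs searched on both strands. The WT1 and EGR type site, GCGNGGGNG, was in 10.51% of all windows. The E-box CAGCTG was in 13.001% of them. The forkhead letters TGTTTAC were in 3.17% of windows. The LIM homeodomain letters TAATTA were in 4.84% of windows. The GATA letters GATAAG were in 6.55% of windows. A match is a description of these letters only.

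The chain polymerases are given gene by gene. Ext2, which works with Ext1 in one complex, was at 128 and 127 CPM in podocyte-like, 110 and 107 CPM in mesangial-like, 93.2 and 64.6 CPM in glomerular endothelial-like, 88.5 and 87.7 CPM in parietal epithelial-like, 83.3 and 72.9 CPM in arterial endothelial-like and 51.9 and 56.7 CPM in thick ascending limb-like cells. It was called higher in podocyte-like cells in all 5 contrasts by small steps, from 0.33 ± 0.13 against mesangial-like cells (edgeR adjusted p = 0.0354) to 1.18 ± 0.15 against thick ascending limb-like cells (adjusted p = 3.34e-06).

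Ext1 (chr15:53064038-53346159, minus strand) was at 179 and 213 CPM in parietal epithelial-like cells and at 56.7 and 57.7 CPM in podocyte-like cells, lower by -1.61 ± 0.12 on the log2 scale (edgeR adjusted p = 5.46e-09). The other classes lay between 21.2 and 61.0 CPM, all below both parietal libraries. The contrasts of podocyte-like with mesangial-like, arterial endothelial-like and thick ascending limb-like cells were not called for Ext1 (log2 0.28 ± 0.14, 0.42 ± 0.195 and -0.05 ± 0.14, adjusted p = 0.0883, 0.0935 and 0.812). Extl3, which adds the first chain sugar, was at 41.7 and 38.8 CPM in podocyte-like cells against 13.8 and 9.23 CPM in glomerular endothelial-like cells, a difference of 1.85 ± 0.23 (adjusted p = 3.56e-06). Its parietal and mesangial contrasts were not called, with log2 differences of 0.07 ± 0.14 and 0.07 ± 0.13. Extl2 was between 4.55 and 34.2 CPM in all classes, and was called lower in podocyte-like than in parietal epithelial-like, mesangial-like and thick ascending limb-like cells.

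Extl1 missed the level of 20 CPM but had a narrow pattern. It was at 11.9 and 9.32 CPM in podocyte-like cells and 6.37 and 9.24 CPM in thick ascending limb-like cells, where the contrast was not called (adjusted p = 0.481). Parietal epithelial-like and both endothelial classes held no Extl1 UMI, and mesangial-like cells held 1. Against a limit of 3 UMIs over both libraries, podocyte-like cells were at least 9.76-fold above parietal epithelial-like, 6.61-fold above glomerular endothelial-like and 4.34-fold above arterial endothelial-like cells.

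Modification enzymes differed most in the 3-O-sulfotransferases, the last sulfotransferases to act on the chain. Hs3st6 (chr17:24752988-24758684, plus strand) was at 561 and 467 CPM in podocyte-like cells. It was at 88.3 and 60.4 CPM in thick ascending limb-like, 16.2 and 8.56 CPM in parietal epithelial-like, 7.38 and 2.64 CPM in glomerular endothelial-like, 4.29 and 1.36 CPM in mesangial-like and 3.03 and 29.2 CPM in arterial endothelial-like cells. All 5 contrasts were called higher, from 2.77 ± 0.24 against thick ascending limb-like cells (edgeR adjusted p = 3.23e-08) to 7.48 ± 0.36 against mesangial-like cells (adjusted p = 1.21e-11). Without mixed cells Hs3st6 fell to 4.76 and 5.99 CPM in thick ascending limb-like cells, and the difference there rose to 6.40. In all 5 other classes it was then at 0.315% to 1.70% of its podocyte level. That lay below the podocyte markers' median in 4 of the classes. In thick ascending limb-like cells it lay above it, at 0.848% and 1.28% against 0.430% and 0.525%, from 3 and 7 UMIs.

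A pair of related genes on the same chromosome had different patterns. Hs3st3b1 (chr11:63885792-63922290, minus strand) and Hs3st3a1 (chr11:64435332-64522841, plus strand) lie 513 kb apart and are transcribed away from each other. Hs3st3b1 was at 307 and 387 CPM in mesangial-like, 112 and 109 CPM in podocyte-like, 36.9 and 44.8 CPM in glomerular endothelial-like, 31.8 and 36.5 CPM in arterial endothelial-like, 26.4 and 25.3 CPM in thick ascending limb-like and 8.96 and 4.28 CPM in parietal epithelial-like cells. Without mixed cells Hs3st3b1 was at 7.93 and 11.98 CPM in thick ascending limb-like cells. Hs3st3a1 was at 94.7 and 76.1 CPM in podocyte-like cells and at 1.29 and 2.04 CPM in mesangial-like cells. Podocyte-like cells were lower than mesangial-like cells for Hs3st3b1, by -1.55 ± 0.13 on the log2 scale (edgeR adjusted p = 2.13e-08). For Hs3st3a1 they were higher by 5.87 ± 0.32 (adjusted p = 6.92e-11). The transcripts of the pair share 416 windows of 50 bases, but none of these lies in the last 1000 bases of a transcript of either gene, where a 3' library reads. The other sharing pairs among the 36 genes were Hs6st2 with Hs6st3 (3 windows) and Ndst3 with Ndst4 (7 windows, all in the last 1000 bases of a transcript of 1 of the 2, so their counts are uncertain).

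The 250 bases before each start site of this pair are shown because the 2 genes are close in sequence and place and differ in class; GGGCGG on either strand is in capitals. The Hs3st3a1 window is chr11:64435082-64435331 on the plus strand and the Hs3st3b1 window chr11:63922285-63922534 on the minus strand (RefSeq, GRCm38.p6).
Hs3st3a1: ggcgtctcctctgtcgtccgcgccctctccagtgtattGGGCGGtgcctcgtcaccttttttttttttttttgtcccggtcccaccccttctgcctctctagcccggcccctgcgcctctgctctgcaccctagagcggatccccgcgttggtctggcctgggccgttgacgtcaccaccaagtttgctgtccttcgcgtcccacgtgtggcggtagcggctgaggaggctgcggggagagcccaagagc
Hs3st3b1: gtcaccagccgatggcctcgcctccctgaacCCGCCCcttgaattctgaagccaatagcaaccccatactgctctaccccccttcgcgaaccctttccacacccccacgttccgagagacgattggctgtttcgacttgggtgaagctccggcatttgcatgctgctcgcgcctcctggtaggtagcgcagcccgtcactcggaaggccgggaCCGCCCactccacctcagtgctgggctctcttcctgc

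The Hs3st3a1 window holds 1 GC box and the Hs3st3b1 window 2, and neither has a match to the other 5 motifs.

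Hs3st1, whose product makes the antithrombin-binding site of heparan sulfate, was nearly absent from podocyte-like cells, with 0 and 1 UMI. It was at 59.1 and 49.2 CPM in arterial endothelial-like cells, 32.5 and 41.7 CPM in parietal epithelial-like cells and 4.61 and 5.27 CPM in glomerular endothelial-like cells, and mesangial-like cells held no UMI. Podocyte-like cells were lower than arterial endothelial-like cells by -11.02 ± 0.57 on the log2 scale (edgeR adjusted p = 1.58e-10), a value that rests on the single podocyte-like UMI. The leading 3-O-sulfotransferase differed between classes. The share of the family's UMIs was 73.0% and 71.6% for Hs3st6 in podocyte-like cells, 98.2% and 99.1% for Hs3st3b1 in mesangial-like cells and 71.4% and 85.0% for Hs3st3b1 in glomerular endothelial-like cells. Hs3st1 held 49.6% and 69.6% in parietal epithelial-like and 62.9% and 40.3% in arterial endothelial-like cells, where Hs3st3b1 held 33.9% and 29.9%.

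**Figure D4:**
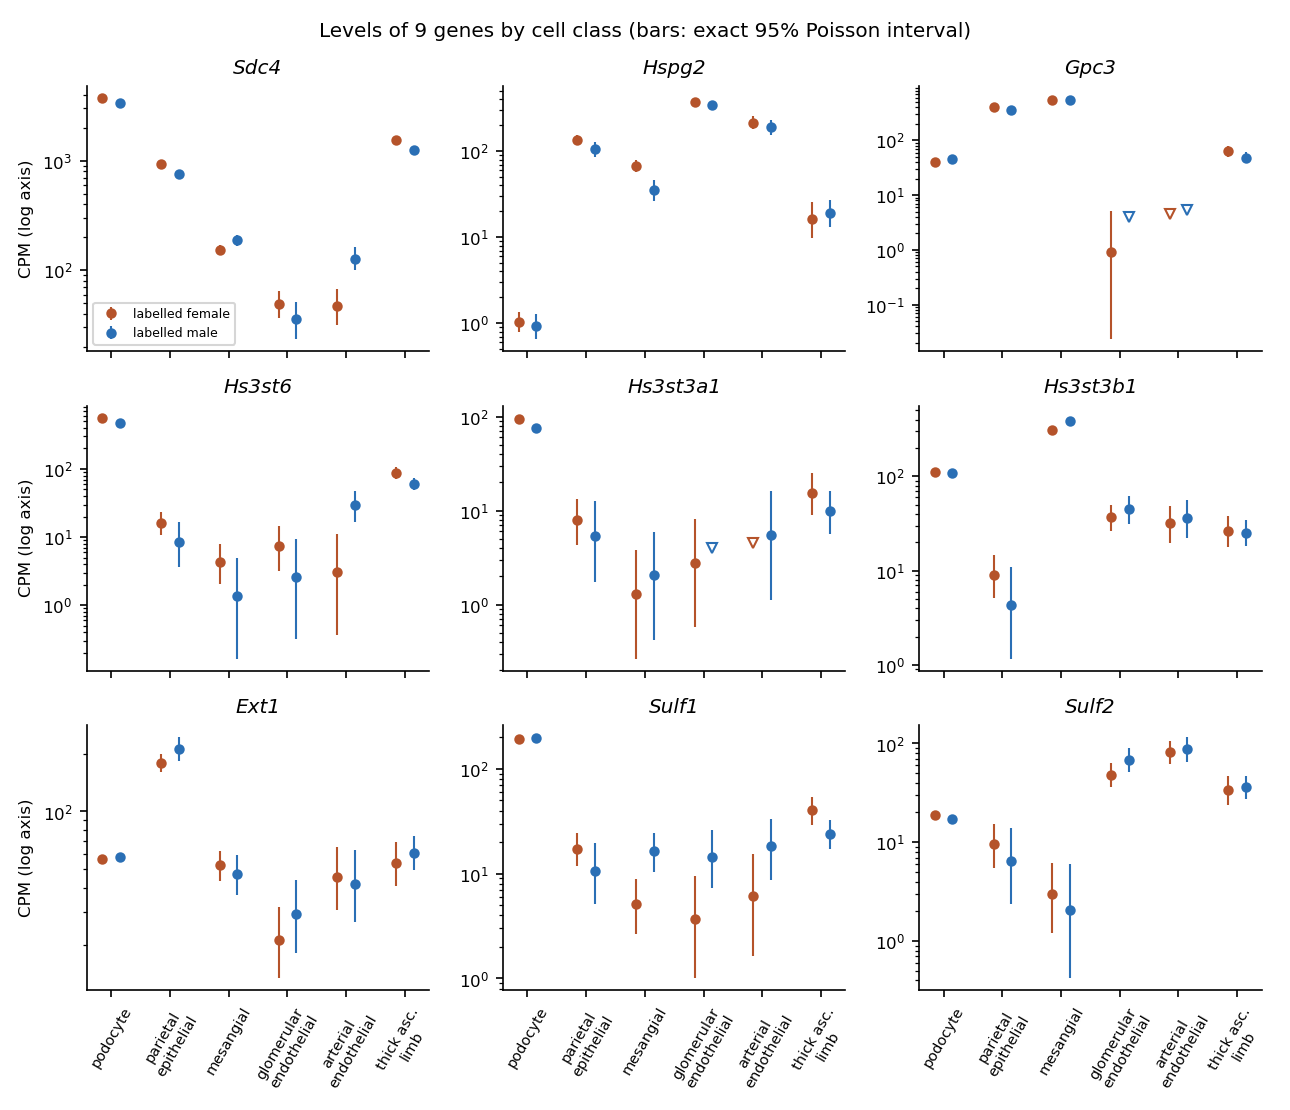
Level of 9 genes in 6 cell classes (x axis) on a log CPM axis that differs between panels; points are the libraries labelled female (brown) and male (blue), bars the exact 95% Poisson interval, which covers counting error only. Open triangles mark classes with no UMI, drawn at the level of 3 UMIs. Hs3st3a1 and Hs3st3b1 part in mesangial-like cells, at 1.29 and 2.04 CPM against 307 and 387 CPM.

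The 6-O-sulfotransferases Hs6st1 and Hs6st2 were both highest on average in parietal epithelial-like cells among the 6 classes. Hs6st1 was at 80.6 and 74.9 CPM in parietal epithelial-like, 68.3 and 84.4 CPM in thick ascending limb-like and 19.3 and 19.1 CPM in podocyte-like cells, with the first 2 classes overlapping. Podocyte-like cells were lower than parietal epithelial-like cells by -1.88 ± 0.17 (edgeR adjusted p = 7.46e-08). Hs6st2 was at 60.5 and 87.7 CPM in parietal epithelial-like cells, 7.29 and 2.04 CPM in mesangial-like cells, 0.911 and 8.62 CPM in thick ascending limb-like cells and 0.178 and 0.0501 CPM in podocyte-like cells, and no UMI was found in either endothelial class. Its parietal difference was -8.90 ± 0.54 on the log2 scale (adjusted p = 2.56e-09), from 190 parietal and 11 podocyte-like UMIs.

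Ndst1, the main enzyme of the first sulfation step, was at 80.6 and 95.2 CPM in parietal epithelial-like cells. The other classes lay between 17.5 and 48.7 CPM, and podocyte-like cells were at 19.98 and 17.5 CPM. They were lower than parietal epithelial-like cells by -2.05 ± 0.18 (edgeR adjusted p = 4.02e-08) and lower than thick ascending limb-like cells by -1.10 ± 0.22 (adjusted p = 0.00041). Ndst1 overlaps Rps14, an abundant ribosomal gene on the opposite strand, and no source used here states whether counting used strand. Gpc1, Gpc3, Sdc3, Ext2, Hs6st1, Hs3st3a1 and Sulf2 also overlap a gene on the opposite strand, so their counts carry the same uncertainty. Hs2st1, which sulfates the uronic acid, was at 114 and 116 CPM in mesangial-like, 74.7 and 75.5 CPM in podocyte-like and 32.3 to 63.8 CPM in the other classes. Podocyte-like cells were lower than mesangial-like cells by -0.52 ± 0.11 (adjusted p = 0.000552). The smallest Hs2st1 call, 0.43 ± 0.17 against arterial endothelial-like cells (adjusted p = 0.0436), was lost without mixed cells (adjusted p = 0.0679). Glce was at 23.1 and 22.4 CPM in glomerular endothelial-like cells and 7.62 and 6.77 CPM in podocyte-like cells, a difference of -1.57 ± 0.33 (adjusted p = 0.000651), and no other Glce contrast was called.

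The 2 endosulfatases differed between podocyte-like and endothelial-like cells. Sulf1 (chr1:12692277-12861192, plus strand) was at 194 and 197 CPM in podocyte-like cells and Sulf2 (chr2:166073089-166155663, minus strand) at 18.9 and 17.1 CPM. In arterial endothelial-like cells Sulf1 was at 6.06 and 18.2 CPM and Sulf2 at 81.8 and 87.5 CPM, and in glomerular endothelial-like cells they were at 3.69 and 14.5 CPM and at 48.0 and 68.6 CPM. Sulf1 was called higher in podocyte-like cells in all 5 contrasts, the smallest 2.63 ± 0.26 against thick ascending limb-like cells (edgeR adjusted p = 2.46e-07). There Sulf1 was at 40.1 and 24.0 CPM with all cells and at 1.59 and 1.71 CPM without mixed cells, where the difference was 6.81. Sulf2 was lower in podocyte-like than in arterial endothelial-like cells by -2.19 ± 0.20 (adjusted p = 7.15e-08) and lower than in glomerular endothelial-like cells by -1.57 ± 0.19 (adjusted p = 2.18e-06), and higher than in mesangial-like cells by 2.87 ± 0.34 (adjusted p = 1.27e-06). Of the endosulfatase UMIs, Sulf1 held 91.1% and 92.0% in podocyte-like cells, and Sulf2 held 92.9% and 82.5% in glomerular endothelial-like and 93.1% and 82.8% in arterial endothelial-like cells.

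The 12 genes that did not reach 20 CPM in a tested class were Gpc2, Gpc5, Extl1, Ndst2, Ndst3, Ndst4, Hs3st2, Hs3st4, Hs3st5, Hs6st3, Hpse and Hpse2. Ndst2 lay between 5.46 and 15.2 CPM in all 6 classes, with no call. Hs3st2 and Hs3st4 had no UMI in any named class. Some of the low genes were read in classes too small for the test. Ndst3 was at 72.3 and 105 CPM in smooth muscle or renin-like cells, from 33 and 64 UMIs, and was at 81.3 and 105 CPM without mixed cells. Hpse, the active heparanase, was at 53.4 and 85.1 CPM in macrophage or monocyte-like cells, from 4 and 17 UMIs in 10 and 25 cells. Ndst4 was read in thick ascending limb-like cells, at 6.37 and 8.01 CPM. These genes were singled out after their values were seen.

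Without mixed cells the thick ascending limb-like levels of Hs3st6, Sulf1, Gpc1, Hs3st3a1, Hs3st3b1, Sdc2 and Sdc4 were lower in both libraries, while Ndst1, Ext1 and Glce moved little. Of the calls against this class, Gpc6 was lost and Gpc3 was gained (adjusted p = 0.456 and 0.0268). Among the other contrasts without mixed cells, Hs2st1 was lost as given above and Ndst2 was gained against parietal epithelial-like cells (adjusted p = 0.0352).

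**Figure D5:**
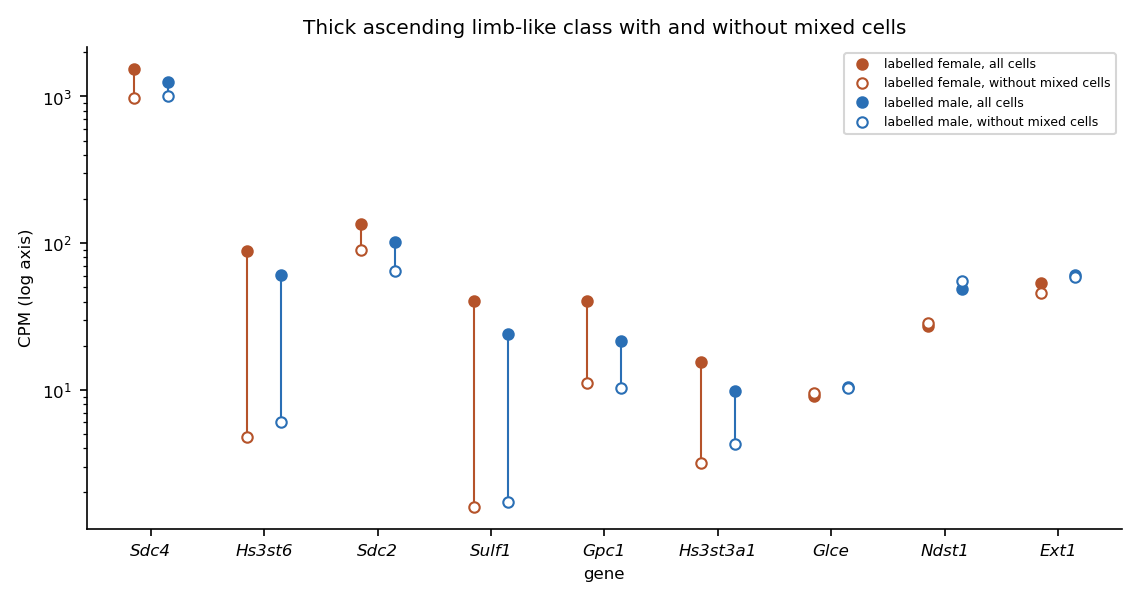
Levels of 9 genes in thick ascending limb-like cells on a log CPM axis, with all cells (filled) and without cells holding 5 or more UMIs of Nphs1 (open). Hs3st6 drops from 88.3 and 60.4 CPM to 4.76 and 5.99 CPM, and Sdc4 stays at 973 and 1009 CPM.

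Within the podocyte-like class the genes varied little between the 7 clusters. For the 12 genes at 20 CPM in podocyte-like cells, the ratio of the highest to the lowest cluster mean ran from 1.07 for Ext2 to 1.76 for Ext1, with a median of 1.23, the same as the 1.23 over all genes at that level. Only Ext1 passed 1.5-fold, where 9.21% of all genes did. It was at 70.9 and 81.8 CPM in the cluster led by Atf3, Nr4a1 and other early-response genes, and at 38.1 and 48.8 CPM in the lowest cluster. Sdc4 was highest in the same cluster, at 4256 and 3846 CPM. Hs3st6, Sdc2, Sulf1, Gpc1, Hs3st3b1 and Ext2 were lowest there, Hs3st6 at 460 and 396 CPM. These are descriptions, since the clusters were made from the same cells.

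The unnamed cluster led by Cst12 and Igfbp6 had levels between those of podocyte-like and parietal epithelial-like cells for several genes. Hs3st6 was at 206 and 147 CPM there, Sdc4 at 2772 and 2848 CPM, Ext1 at 91.9 and 93.0 CPM, Gpc3 at 88.5 and 96.4 CPM, Ndst1 at 42.8 and 41.1 CPM and Hspg2 at 33.1 and 26.8 CPM. Hs3st3a1 and Sdc2 were near the podocyte-like level, at 94.2 and 75.4 CPM and at 354 and 366 CPM.

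The unnamed cluster led by Igfbp4 had Hs3st6 at 358 and 317 CPM, Sdc4 at 2446 and 2418 CPM and Gpc3 at 173 and 91.3 CPM. With clusters named by marker score alone, this cluster and the one led by Cst12 were both named podocyte-like. That class then held 4289 and 3832 cells. At clustering resolution 0.5 the parietal epithelial-like class grew from 81 and 52 to 194 and 142 cells, and which cells joined it is not given here.

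The rest of the pathway was read from lists. Of 19 genes for the linker and the sugar and sulfate precursors, all were tested. In podocyte-like cells 5 were higher and 2 lower than in glomerular endothelial-like, 5 and 1 than in arterial endothelial-like, 6 and 4 than in mesangial-like, 2 and 6 than in parietal epithelial-like and 4 and 5 than in thick ascending limb-like cells. Against glomerular endothelial-like cells 26.4% of all genes were called higher and 27.0% lower, so the 5 higher of 19 lay near that background. In the other contrasts these shares ran from 23.0% to 26.8% and from 23.4% to 30.7%. The medians lay between -0.08 and 0.54 on the log2 scale. B3gat3, which completes the linker, was the only one called in all 5 contrasts, higher in podocyte-like cells at 79.4 and 70.6 CPM, by 0.78 ± 0.13 to 1.04 ± 0.19 (edgeR adjusted p = 5.7e-05 and 0.00027 in that order). Of 8 lysosomal genes of heparan sulfate breakdown, 7 were tested, and 2 or 3 were higher and 0 to 3 lower in each contrast. Hgsnat, the acetyltransferase of that route, was called higher in podocyte-like cells in all 5, at 103 and 98.2 CPM against 22.5 to 47.4 CPM elsewhere.

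Chondroitin and dermatan sulfate enzymes, whose chains start on the same linker, were read for comparison, and their difference from the heparan sulfate set was not tested. Of 14 tested of 16, 1 was higher and 11 lower in podocyte-like than in mesangial-like cells, where 26.8% and 30.7% of all genes were called, with a median log2 difference of -2.35 beside 0.00056 for all genes. The counts were 3 higher and 8 lower against glomerular endothelial-like, 2 and 8 against arterial endothelial-like, 3 and 7 against parietal epithelial-like and 5 and 5 against thick ascending limb-like cells. The shares of all genes called higher and lower in these 4 contrasts were 26.4% and 27.0%, 23.3% and 23.4%, 23.0% and 30.1%, and 23.4% and 29.4%. Chst11, a chondroitin 4-O-sulfotransferase, was at 0.0395 and 0.0501 CPM in podocyte-like cells and 31.8 and 38.3 CPM in arterial endothelial-like cells, and Chst7 was at 0.0197 and 0.0251 CPM and 10.6 and 7.29 CPM. Of the genes called in all 5 contrasts, Ust and Dse had the highest podocyte-like differences. Ust was at 12.6 and 11.0 CPM in podocyte-like cells and between 0 and 6.37 CPM in the other classes, and Dse, a dermatan epimerase, at 23.7 and 29.1 CPM, below its mesangial-like level of 52.7 and 63.8 CPM.

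Ligands and receptors that bind heparan sulfate were called in both directions. Of 19 tested of 24, 7 were higher and 6 lower in podocyte-like than in glomerular endothelial-like cells, 8 and 7 than in arterial endothelial-like, 5 and 12 than in mesangial-like, 5 and 11 than in parietal epithelial-like and 6 and 8 than in thick ascending limb-like cells. The shares of all genes called higher and lower were 26.4% and 27.0% against glomerular endothelial-like cells and 26.8% and 30.7% against mesangial-like cells, and in the other 3 contrasts from 23.0% to 23.4% and from 23.4% to 30.1%. Vegfa, the endothelial growth factor, was at 1606 and 1589 CPM in podocyte-like cells against 19.0 to 348 CPM elsewhere, and Fgfr4 at 15.8 and 15.6 CPM with no UMI in either endothelial class. At the low end, Fgf1 was at 0.118 and 0.226 CPM in podocyte-like and 342 and 290 CPM in glomerular endothelial-like cells. Slit3, an axon guidance ligand, had no UMI in podocyte-like cells and was at 26.3 and 23.5 CPM in parietal epithelial-like cells.

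Between the 2 libraries there is 1 mouse on each side, so no test is possible and a difference here compares libraries. A gene was counted where it was at least 1.5-fold apart with at least 30 UMIs in the higher library. In podocyte-like cells none of 21 such genes passed, where 4.76% of all genes did. The ratios, library labelled female over labelled male, ran from 0.873 for Gpc3 (95% counting interval 0.819 to 0.930) to 1.28 for Extl1 (1.12 to 1.46). Hs3st6 had 1.20 (1.18 to 1.22) and Sdc4 1.10 (1.096 to 1.11).

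In the other classes 7 differences passed. In arterial endothelial-like cells it was Sdc4, 1 of 7 genes (13.4% of all genes passed), at 47.0 and 128 CPM, where podocyte markers were at 2.10% and 5.24%. Without mixed cells the values were 34.6 and 47.7 CPM, from 22 and 24 UMIs. In mesangial-like cells it was Hspg2, 1 of 15 (10.0% of all genes), at 67.8 and 35.3 CPM, and at 34.5 and 27.2 CPM without mixed cells. In parietal epithelial-like cells Sulf1 (17.4 and 10.7 CPM) and Extl2 (22.4 and 34.2 CPM) passed, 2 of 17 beside 11.1% of all genes, and both counting intervals include a ratio of 1. In thick ascending limb-like cells Sulf1, Gpc1 and Ndst1 passed, 3 of 14 beside 13.7%. Sulf1 and Gpc1 came to 1.59 and 1.71 CPM and 11.1 and 10.3 CPM without mixed cells, whereas Ndst1 went from 27.3 and 48.7 CPM to 28.5 and 55.6 CPM. With all cells, distal convoluted tubule markers in this class summed to 1962 and 3798 CPM, so its make-up also differed between the libraries. The part of this in the Ndst1 difference was not tested. In glomerular endothelial-like cells none of 6 passed, beside 14.1% of all genes.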

How the data were processed

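Whole-number UMI counts per gene and cell were deposited by the authors for 2 libraries. Per the submitters' processing notes the tools were Cell Ranger 6.1.2 and STAR 2.7.5a with mm10, and no source used here states the strand setting or the annotation. Cells over 20% mitochondrial UMIs or under 500 genes were left out. Scrublet called 3 and 1 cells and so had not worked, and no doublets were removed. Cells were clustered with scanpy 1.11.5 (2000 variable genes, 30 components, 10 neighbours, Leiden resolution 1.0). A type needed at least 3 markers, each in over 20% of the cluster's cells and at 50 CPM or more. Each also had to exceed 2-fold the lower quartile of the clusters. The type with the highest mean marker level, relative to each marker's top cluster, gave the name. A cluster stayed unnamed where another type had more markers among its 10 leading genes. It also did where none of its own markers led and depth was low or cell cycle genes led. The neighbour number, unscaled genes, exclusion of haemoglobin genes and the naming rule were set after seeing the clusters' markers. Counts were summed per library and class and tested with edgeR 4.0.16 (TMM, library and class as terms). edgeR gives no standard error for this test. The values after ± were derived as the absolute log2 difference over the square root of its F statistic. Genes named from lists are the 2 highest and 2 lowest by mean fold among those called in most contrasts. The genes and lists were chosen with earlier results of these data known. Mixed cells, defined after seeing the data, were later redefined by Nphs1 alone; 1 further marker used in naming clusters is not reported here. Poisson and binomial intervals are exact, at 95%, and cover counting error only. Sequences are from RefSeq, with 27 of the 36 genes matched. Alternatives are given in the closing section.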

Additional observations from a re-analysis of the deposited data

How the results depend on the processing

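Over all settings with a test, 1453 values were recomputed for the 98 calls: 1416 kept direction and side of the threshold, 35 lost the call and 2 reversed. With each cell thinned to 3000 UMIs, only 90 of the 98 calls had a value, and a call without one could not be kept. Of the 90, 79 stayed the same, 9 were lost and 2 reversed. Calls lower against glomerular endothelial-like cells went from 5 to 3, higher against parietal epithelial-like cells from 11 to 7 and lower against thick ascending limb-like cells from 10 to 5. The share of all genes called after thinning is not given here. With thinning Hs3st1 and Gpc6 reversed against thick ascending limb-like cells, at 0.85 and 1.95 (edgeR adjusted p = 0.937 and 0.870). For Gpc6, podocyte-like against arterial endothelial-like, the log2 difference reversed to 0.28 without the library labelled female and was -3.79 without the library labelled male. Between libraries, the podocyte-like count of 0 became 2 with clusters named by score alone and 1 at a minimum of 10 UMIs. The count of 7 in other classes became 3 with thinning, 15 with scaled genes and 20 neighbours, and 26 at 10 UMIs. The numbers of genes that could be counted and the shares of all genes under these settings are not given here. Thinning and the UMI minimum change which genes can be counted, so these counts are descriptions only. The cause was not tested. Clusters at a 10% mitochondrial limit gave no parietal or thick ascending limb class. The classes were compared within libraries, and without the library block 3 calls were lost. Between the libraries no paired analysis was possible because each labelled group holds 1 library. Settings with 20 neighbours, scaled genes or no mixed cells were chosen after seeing the data.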
